A study of Mus musculus with 66 samples.

Results

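Mouse germ cells grown from embryonic stem cells in reconstituted ovaries were compared on day 7 of culture (D7) with day 5 (D5). The comparison used 3 libraries per day, 6 of the 66 libraries of the series. It ran over the 13778 of 24062 listed genes with a mean of at least 1 RPM (reads per 1e+06 reads of a library) on either day. Cells of both days were labelled as germ cells of the strain C57BL/6 X 129/SvJ. Each reconstituted ovary (rOvary) had been assembled from 5000 primordial germ cell-like cells (PGCLCs) positive for the Blimp1-mVenus (BV) reporter. The other component was 75000 gonadal somatic cells of E12.5 embryos, frozen and thawed before use, so the somatic partner was embryonic and not made from stem cells. The aggregates grew on Transwell-COL membranes, with 10 µM of the Rock inhibitor Y-27632 during the first 2 days, and this held for the D7 and the D5 cultures alike. How the cultured germ cells were separated from the somatic cells is not given in the sources used here. The series calls its replicates biological, but the labels do not say whether libraries of a day came from separate cultures, so p-values measure only the spread between these libraries.

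Female primordial germ cells stop dividing by mitosis and enter meiosis when they receive BMP and retinoic acid signals from the gonad. STRA8 and its partner MEIOSIN then switch on meiotic genes before the last DNA replication, and cohesin with REC8 is loaded at that step. In the prophase that follows, chromosomes fold along a protein axis, SPO11 cuts DNA to start recombination, and the synaptonemal complex zips paired chromosomes together. Genes of the pluripotent and early germ cell state are shut down over the same passage.

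Libraries held 15441579 to 19802836 reads at D7 and 19583114 to 22807730 reads at D5, so that 3 reads corresponded to 0.151 to 0.194 RPM at D7 and 0.132 to 0.153 RPM at D5. These floors reflect counting error alone, since amplified reads that carry no molecular identifiers can be copies of the same molecule. D5 replicate 2 stood apart. Its log2 values correlated with those of D5 replicates 1 and 3 at Pearson's r of 0.938 and 0.947 across genes, where the D5 replicate 1 and 3 pair reached 0.991 and the D7 pairs 0.986 to 0.991. Genes of the cytosolic ribosome took 7.42%, 8.314% and 6.972% of the D7 libraries. They took 8.204%, 18.53% and 9.063% of D5 replicates 1, 2 and 3. Long transcripts were low in D5 replicate 2. Spearman's rho across 13107 genes, a description with no test, was -0.63 between transcript length and the difference of that library from the mean of the other D5 libraries. The part of RNA quality in this was not tested. Counts and changes are therefore given with all 6 libraries and without D5 replicate 2.

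A gene was called higher or lower at a Benjamini-Hochberg adjusted p under 0.05 in limma, fitted to log2(RPM + 1) of the 27 libraries of the culture course (9 days of culture from D5 to D20). With all 6 libraries 4863 genes were called, 35.3% of those tested. Of these, 2383 (17.3%) were higher at D7 and 2480 (18%) were lower, and the log2 change had a median of -0.04 over all genes. A log2 change of at least 1 was seen in 1364 called genes (9.90%), of which 793 were higher and 571 lower at D7. With D5 replicate 2 left out, 3577 genes (26.0%) were called, 1574 (11.4%) higher and 2003 (14.54%) lower, with a median of -0.08. Called in the same direction both ways were 3021 genes, 1413 higher and 1608 lower, and 0 were called in opposite directions. The spread between D5 libraries was wider than that of most days. The median standard deviation of log2 values was 0.163 at D7 and 0.317 at D5, and 0.117 to 0.329 over the 9 days. A fit of only the 6 libraries, whose spread comes from D7 and D5 alone, called 894 genes higher and 987 lower. Calls that stood with the same sign in all of these fits numbered 1672, 823 higher and 849 lower at D7. They are called robust below, a grouping made after the values were seen. They were not required to stand without any other library, such as D7 replicate 3, whose omission gave 3010 calls. Counts of list members below stand beside the shares of all genes, 17.3% higher and 18% lower, or 11.4% and 14.54% without D5 replicate 2. Lists share members, among them Zglp1, Rec8, Stra8, Taf4b and Cdk2, so their counts are not independent.

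**Figure D1:**
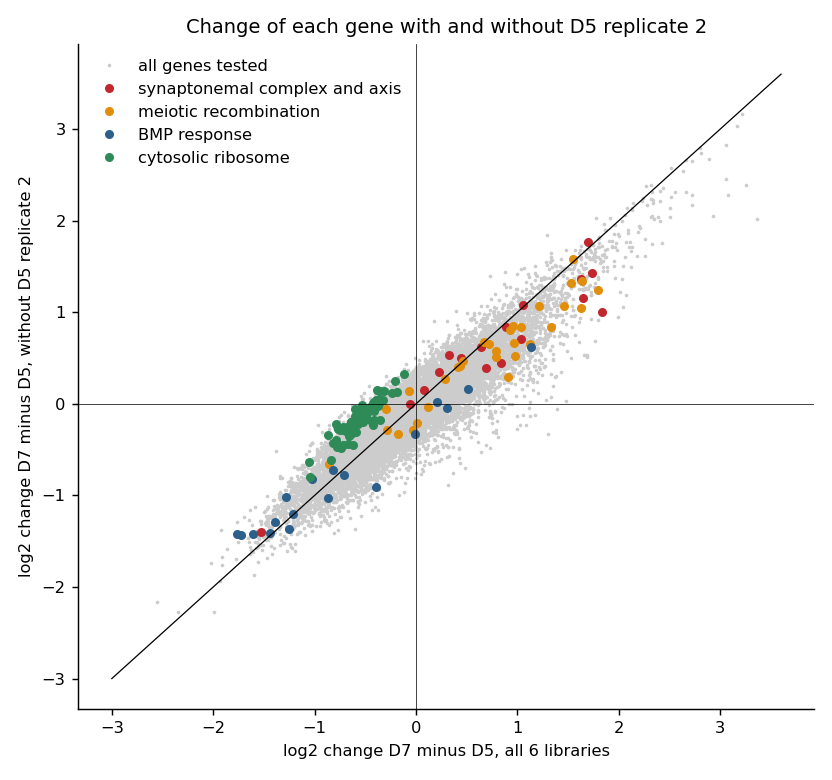
Log2 change of each tested gene, D7 minus D5, with all 6 libraries (horizontal axis) and without D5 replicate 2 (vertical axis). Grey points are all 13778 genes, coloured points are members of 4 gene lists, and the diagonal marks equal values. Cytosolic ribosome genes lie above the diagonal and mostly nearer to 0 without D5 replicate 2, while most BMP response genes keep low values both ways.

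Among 17 tested regulators of meiotic entry, 5 were higher and 4 lower at D7 (3 and 2 without D5 replicate 2). Their median log2 change was -0.04, equal to that of all genes to 2 decimals. Stra8, which triggers the meiotic programme, had 440, 413 and 518 RPM at D7, against 641, 949 and 735 RPM at D5. All D7 libraries lay below all D5 libraries, but its log2 change of -0.75 ± 0.38 (SE) was not called (adjusted p = 0.12). In the fit of the 6 libraries alone its adjusted p was 0.0498. Rec8, the meiotic cohesin subunit, had 168, 181 and 211 RPM at D7, against 451, 654 and 535 RPM at D5, without overlap. It fell by 1.53 on the log2 scale (adjusted p = 0.0024) and by 1.39 without D5 replicate 2. Zglp1, a zinc finger protein that acts downstream of BMP in starting the oogenic programme, had 6.42, 8.38 and 8.16 RPM at D7, against 24.2, 46.1 and 20.2 RPM at D5. Its groups did not overlap, D5 replicate 2 was the highest, and the log2 change was -1.77 (adjusted p = 0.00016) or -1.43 without that library.

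Ccnb3 (RefSeq gene span X:6979652-7041635, GRCm38), a cyclin of meiotic cells, moved the other way. It had 110, 97.1 and 111 RPM at D7, against 22.9, 3.24 and 19.2 RPM at D5. The log2 change was 3.07 ± 0.41 (adjusted p = 1.1e-05), and 2.28 without D5 replicate 2, the lowest library. Taf4b, a germ cell subunit of the TFIID transcription complex, rose by 0.96 (adjusted p = 0.00042), to 369 ± 29.5 RPM at D7 against 197 ± 62.8 RPM at D5 (SD, n = 3 each). Setdb1, a histone methyltransferase that represses genes, was higher by 0.97 with all libraries and 0.64 without D5 replicate 2, but its adjusted p was 0.063 when only the 6 libraries were fitted. The RNA-binding protein gene Ythdc2 was called with all libraries (1.12) and not without D5 replicate 2 (0.33, adjusted p = 0.23). Dazl, the RNA-binding protein that licenses germ cells for meiosis, had 1188, 1133 and 1207 RPM at D7, against 1238, 1074 and 1494 RPM at D5. Its groups overlapped and its log2 change was -0.10 (adjusted p = 0.73). Dmrt1, a regulator of Stra8, had means of 106 RPM at D7 and 178 RPM at D5, groups that did not overlap, and an adjusted p of 0.17, or 0.023 in the 6-library fit.

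**Figure D2:**
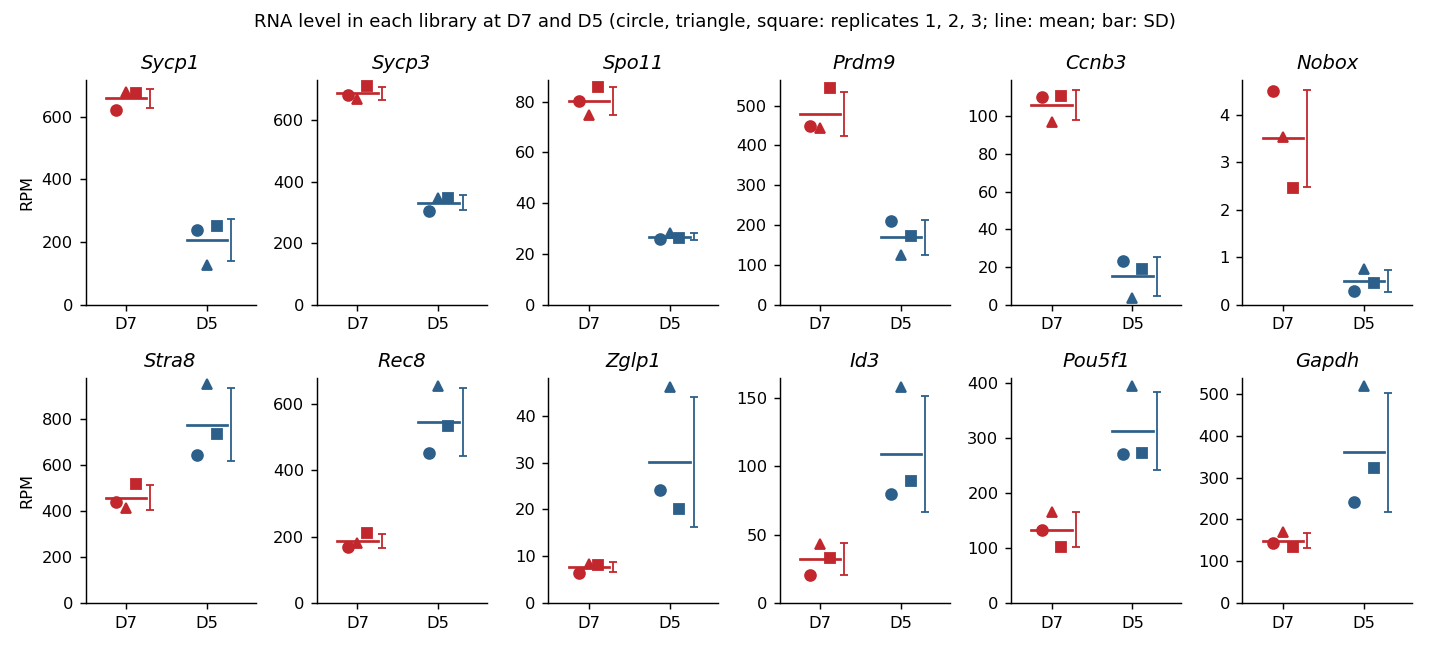
RPM of 12 genes in each library, D7 on the left and D5 on the right of each panel; circles, triangles and squares are replicates 1, 2 and 3, lines are means and bars SD (n = 3). In every panel the D7 libraries do not overlap the D5 libraries, and D5 replicate 2 (triangle) is the lowest for Sycp1, Prdm9 and Ccnb3 and the highest for Stra8, Rec8, Zglp1, Id3, Pou5f1 and Gapdh.

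The synaptonemal complex and chromosome axis list held 17 tested genes, of which 9 were higher and 1 lower at D7, with a median log2 change of 0.84. Without D5 replicate 2 the counts were again 9 and 1, with a median of 0.62, and the fit of the 6 libraries alone called 7 higher and 1 lower. Sycp1, the transverse filament of the synaptonemal complex, had 623, 678 and 675 RPM at D7, against 239, 127 and 250 RPM at D5. The groups were far apart, and the log2 change was 1.74 ± 0.22 (adjusted p = 6.8e-06) or 1.43 without D5 replicate 2. Sycp3, of the lateral element, had 682, 670 and 711 RPM at D7, against 304, 347 and 345 RPM at D5. It rose by 1.05 (adjusted p = 7.1e-05), and here D5 replicate 2 lay with the other D5 libraries. Syce3, of the central element, had 44.1, 47.7 and 49.0 RPM at D7, against 11.6, 15.5 and 14.7 RPM at D5, a log2 change of 1.69 (adjusted p = 0.00015).

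Sycp2 of the lateral element rose by 1.64, Six6os1 of the central element (listed as 4930447C04Rik) by 1.62 and Hormad1, an axis protein that guides pairing, by 0.88, and all 3 calls were robust. The cohesin subunit Rad21l had 120, 116 and 150 RPM at D7, against 62.6, 10.4 and 63.4 RPM at D5. Its log2 change was 1.84 with all libraries and 1.01 without D5 replicate 2, and its adjusted p was 0.077 when only the 6 libraries were fitted. Smc1b, a cohesin subunit of meiosis, averaged 2125 RPM at D7 and 1084 RPM at D5. Its change was 1.04, or 0.71 without D5 replicate 2, and its adjusted p was 0.059 with only the 6 libraries. Hormad2 was called with all libraries (0.84) and not without D5 replicate 2 (0.45, adjusted p = 0.30), whereas Syce2 was called only without it (0.53, against 0.32 with it). The single member that fell was Rec8. Over the culture course 13 of the 17 had their highest mean at D7, against 3065 of all genes tested (22.2%).

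The promoters of the largest called rises among the retinoic acid, entry, axis and recombination lists are shown because these genes had the largest rises there. Sequences are RefSeq, build GRCm38.p6, the 100 bases before the transcript start that the promoter table uses, read 5′ to 3′ on the gene's strand, with the letters CACGTG (an E-box) in capitals. The RefSeq gene spans of Ccnb3, Rad21l and Spata22 reach further upstream than that start, so their windows lie partly or wholly within the gene span. They lie at chrX:7041620-7041719 (minus strand) for Ccnb3, chr2:151668534-151668633 (minus strand) for Rad21l, chr11:73329641-73329740 (plus strand) for Spata22 and chr3:102936101-102936200 (minus strand) for Sycp1.
Ccnb3: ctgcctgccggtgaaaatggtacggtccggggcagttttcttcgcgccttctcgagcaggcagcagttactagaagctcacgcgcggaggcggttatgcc
Rad21l: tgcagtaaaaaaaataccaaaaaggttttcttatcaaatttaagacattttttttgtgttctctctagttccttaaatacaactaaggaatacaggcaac
Spata22: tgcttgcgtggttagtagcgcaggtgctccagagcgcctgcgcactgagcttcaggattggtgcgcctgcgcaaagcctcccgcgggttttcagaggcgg
Sycp1: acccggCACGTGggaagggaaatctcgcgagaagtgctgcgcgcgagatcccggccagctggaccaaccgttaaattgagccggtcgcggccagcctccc
The motifs searched, on both strands of the 250 bases before that start, were CACGTG, the direct repeat of AGGTCA with 5 free bases between that retinoic acid receptors bind, and the E2F letters TTTCCCGC and TTTGGCGC. Of these 4 genes Sycp1 held CACGTG and the other genes held none of the motifs, which says only that the letters are not in these windows.

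CACGTG, which reads the same on both strands, was found before 7 of the 17 axis genes (41.2%), against 936 of 10896 promoters of tested genes (8.59%) and 6.05% of all 27025 promoters in the table. Of the recombination genes with a promoter 0 of 22 held it, of the entry regulators 2 of 14 (14.3%) and of the BMP genes 1 of 14 (7.14%). Among meiotic and retinoic acid genes called higher at D7 it was before 4 of 27 (14.8%). It was found in 8.04% of promoters of genes higher at D7 and in 9.3% of those of genes lower at D7. E2F letters were before 3 of 22 recombination genes (13.6%), 2 of 14 entry regulators (14.3%) and 1 of 17 axis genes (5.88%). They were before 0 of 14 BMP genes and 4 of those 27 genes (14.8%), against 2.66% of promoters of tested genes. The retinoic acid receptor repeat was before 0 of the 10896. Each match is a description and not a binding site, and the promoter table covered 79.1% of the tested genes. The windows below, 30 bases around each CACGTG before the 4 called genes among the 7, were chosen after the values were seen and show how the flanking letters differ.
Sycp1: tagagaacccggCACGTGggaagggaaatc
Six6os1 (4930447C04Rik): actgtggcctacCACGTGgtgcgcggggtc
Sycp3, distal: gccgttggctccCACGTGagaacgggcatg
Sycp3, proximal: acgggcatggagCACGTGctaggaggcggg
Hormad1, distal: caaagggtgcgcCACGTGccagtgacagtt
Hormad1, proximal: atgcgcactgcgCACGTGctgaccggagcg
They lie at chr3:102936177-102936206 (minus strand), chr12:72917919-72917948 (minus strand), chr10:88459511-88459540 and chr10:88459532-88459561 (plus strand), and chr3:95559608-95559637 and chr3:95559645-95559674 (plus strand). The other holders were Stag3, Tex12 and Fkbp6, whose log2 changes of 0.69, 0.65 and 0.23 were not called.

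Of 31 tested recombination genes, 20 were higher and 2 lower at D7, with a median log2 change of 0.79. Leaving D5 replicate 2 out, they were 15 and 2 with a median of 0.58, and in the fit of the 6 libraries alone they were 14 and 1. Spo11, the enzyme that makes the meiotic DNA breaks, had 80.3, 74.8 and 85.6 RPM at D7, against 25.9, 28.2 and 26.3 RPM at D5. The D5 libraries were close together, and the log2 change of 1.55 ± 0.29 (adjusted p = 0.00038) was 1.58 without D5 replicate 2. Its TOPOVIBL partner, listed as Gm960, rose by 1.46 (adjusted p = 0.0044). Prdm9, the histone methyltransferase that places the breaks, averaged 479 RPM at D7 and 169 RPM at D5 and rose by 1.53 (adjusted p = 0.00016).

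Msh5, which with MSH4 stabilises crossover intermediates, had 392, 350 and 472 RPM at D7, against 168, 84.8 and 148 RPM at D5. Its log2 change was 1.64 (adjusted p = 0.00085), and Msh4 rose by 0.96. Spata22, which binds single-stranded DNA with MEIOB, had 152, 152 and 166 RPM at D7, against 65.0, 20.2 and 66.3 RPM at D5. It rose by 1.79 with all libraries and 1.24 without D5 replicate 2, and Meiob by 1.21 and 1.07. The helicase gene Hfm1 had 623, 558 and 720 RPM at D7, against 322, 91.0 and 287 RPM at D5, and rose by 1.63 (adjusted p = 0.0020).

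The strand exchange enzyme gene Dmc1 had 347, 335 and 399 RPM at D7, against 196, 159 and 215 RPM at D5. Its groups did not overlap, and it was called with all libraries (0.93, adjusted p = 0.031) but not without D5 replicate 2 (0.80, adjusted p = 0.10). The calls for the damage kinase gene Atm, for Mei1 and Ccdc36 (IHO1), both needed for break formation, and for Hsf2bp, a BRCA2 partner, were also lost without that library. Mnd1, a helper of strand exchange, fell (-0.86). Of the 31 genes, 23 had their highest course mean at D7.

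Chromosome movement in prophase needs telomeres tied to the nuclear envelope. Of 9 tested genes of that machinery 4 were higher and 0 lower at D7, and 2 and 1 without D5 replicate 2. Terb1 (listed as Ccdc79), the telomere adaptor, had 238, 246 and 274 RPM at D7, against 102, 65.5 and 92.5 RPM at D5, a log2 change of 1.56 (adjusted p = 2.8e-07). Spdya, the activator of CDK2 at telomeres, rose by 1.20 (adjusted p = 0.0025). Sun1 and Cdk2 were called with all libraries (0.56 and 0.39) and not without D5 replicate 2 (0.30 and 0.23).

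Of 18 tested targets and components of BMP signalling, 11 were lower and 1 higher at D7, with a median log2 change of -0.95. Without D5 replicate 2 the counts were 9 and 0 and the median -0.96, and the 6-library fit called 11 lower and 0 higher. Id3, a direct BMP target that blocks differentiation factors, had 20.3, 43.2 and 32.6 RPM at D7, against 79.8, 158 and 88.9 RPM at D5. It fell by 1.73 ± 0.27 (adjusted p = 7.0e-05) and by 1.43 without D5 replicate 2, and the groups did not overlap either way. Gata2, a transcription factor induced in female germ cells under BMP, had 49.0, 50.6 and 46.0 RPM at D7, against 123, 141 and 138 RPM at D5, with libraries of a day close together. Its change was -1.44 (adjusted p = 0.0025).

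The homeobox target genes Msx1 and Msx2 fell by 1.61 and 1.39, to 4.499 and 3.05 RPM at D7 against 16.0 and 9.63 RPM at D5. The inhibitory SMAD genes Smad6 and Smad7 fell by 1.22 and 1.26, and the receptor gene Acvr1 by 0.87. Calls for Id1 (-1.29), Id2 (-1.02) and Id4 (-0.82) were lost without D5 replicate 2. The 5 signal carriers and receptors Smad1, Smad4, Smad5, Bmpr1a and Smad9 were not called with all libraries, with log2 changes between -0.40 and 0.51. Of these, Smad9 was called lower without D5 replicate 2 (-0.91, adjusted p = 0.048). Bmpr2, the type II receptor gene, was higher with all libraries (1.14) but not called without D5 replicate 2 (0.62, adjusted p = 0.070).

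In the retinoic acid list 6 of 16 tested genes were lower and 2 higher, with a median log2 change of -0.69. The counts were 4 and 1 without D5 replicate 2. Over all genes 18% were lower and 17.3% higher (14.54% and 11.4% without D5 replicate 2). Rara, a retinoic acid receptor gene, averaged 29.4 RPM at D7 and 48.6 RPM at D5 and fell by 0.71 (adjusted p = 0.0081). Aldh1a2, an enzyme that makes retinoic acid, had 9.11, 10.8 and 8.22 RPM at D7, against 2.66, 2.59 and 4.09 RPM at D5. It rose by 1.35 (adjusted p = 0.00043). Both calls were robust, and the other 6 calls (Rarg, Rxra, Crabp1, Crabp2, Aldh1a1 and Rdh10) were not.

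WNT targets gave 7 lower and 1 higher of 15 tested (6 and 0 without D5 replicate 2), with a median of -0.71. Cdx2, a caudal homeobox gene, had 0.673, 2.98 and 1.30 RPM at D7, against 5.96, 10.8 and 6.13 RPM at D5, a log2 change of -1.75 (adjusted p = 5.8e-05). Lef1, a transcription factor of the pathway, fell by 1.20 and Axin2, its feedback inhibitor, by 0.79, both robust.

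**Figure D3:**
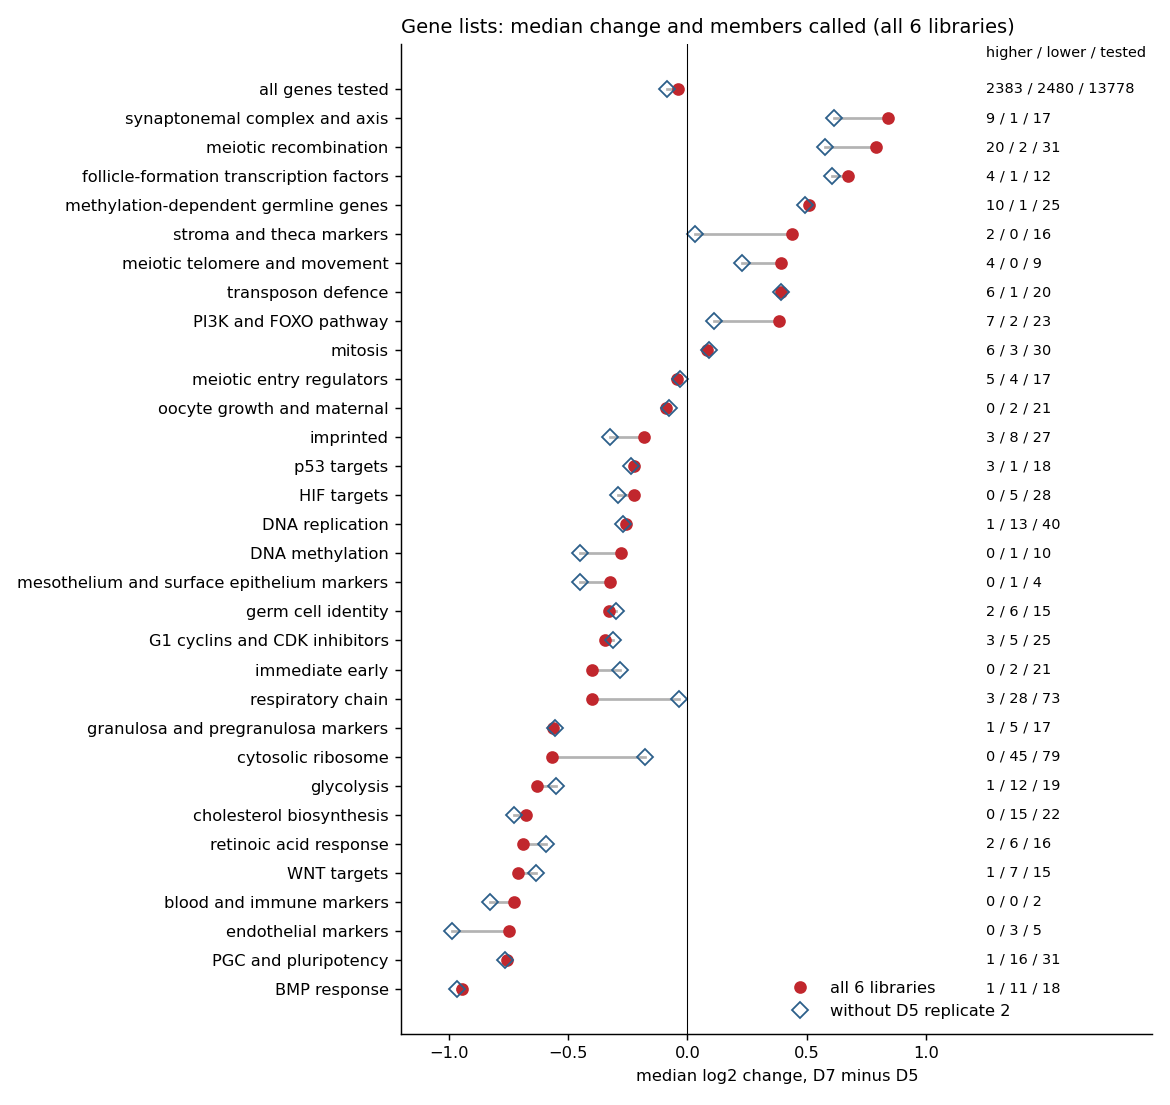
Median log2 change, D7 minus D5, of the tested members of 31 gene lists and of all genes tested; circles use all 6 libraries and diamonds leave out D5 replicate 2, and the numbers at the right give members called higher, lower and tested with all 6 libraries. Axis and recombination lists lie at the high end (0.84 and 0.79) and the BMP response at the low end (-0.95), and the respiratory chain and cytosolic ribosome medians move most towards 0 without D5 replicate 2 among lists with over 30 members.

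Of 31 tested primordial germ cell and pluripotency genes, 16 were lower and 1 higher at D7, with a median log2 change of -0.76. Leaving out D5 replicate 2, 12 were lower and 0 higher, with a median of -0.77, and 11 were lower in the 6-library fit. Pou5f1, the OCT4 pluripotency factor, had 133, 165 and 101 RPM at D7, against 271, 394 and 272 RPM at D5. The groups did not overlap, and the log2 change was -1.23 ± 0.18 (adjusted p = 3.5e-05). Dppa5a, a pluripotency-associated RNA-binding protein, had 62.0, 102 and 49.7 RPM at D7, against 157, 301 and 151 RPM at D5, and fell by 1.49 (adjusted p = 6.0e-05). Within the D7 group replicate 2 was the highest for both genes.

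Sall4, a zinc finger factor of stem and germ cells, averaged 80.4 RPM at D7 and 180 RPM at D5 (log2 change -1.18), and Lin28a, which restrains let-7 maturation, 113 RPM at D7 and 185 RPM at D5 (-0.69). Dnd1, which protects germ cell mRNAs, fell by 1.26, Ifitm1, a membrane protein of early germ cells, by 1.77 and Esrrb, an orphan nuclear receptor of naive pluripotency, by 0.97. These 5 calls were robust. Nanog had 16.2, 33.2 and 12.8 RPM at D7, against 35.5, 41.2 and 35.5 RPM at D5, and Sox2 averaged 46.4 RPM at D7 and 74.3 RPM at D5. Neither was called, although no D7 library reached a D5 library (adjusted p = 0.082 and 0.23). Prdm1 (BLIMP1), the factor whose reporter marked the starting PGCLCs, averaged 41.1 RPM at D7 and 66.3 RPM at D5 and was called with all libraries (-0.64, adjusted p = 0.044) and without D5 replicate 2 (-0.89), but not in the 6-library fit (adjusted p = 0.094).

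Kit, the receptor for KIT ligand, depended on D5 replicate 2. It had 142, 161 and 138 RPM at D7, against 294, 145 and 269 RPM at D5. Its log2 change was -0.62 (adjusted p = 0.084) with all libraries and -0.94 (adjusted p = 0.014) without that library, the only D5 library within the D7 range. Dppa3 (STELLA), a protector of maternal methylation marks, was called with all libraries (-0.91, adjusted p = 0.016) and not without D5 replicate 2 (-0.65, adjusted p = 0.10). Lin28b, the LIN28 paralogue, was the member called higher (0.93), and was not called without D5 replicate 2 (0.63). Ddx4, the germ cell RNA helicase, had overlapping groups, with 456, 399 and 457 RPM at D7, against 393, 253 and 483 RPM at D5 (log2 change 0.26, adjusted p = 0.21). The summed level of 15 germ cell identity genes was 3010 to 3020 RPM at D7 and 2920 to 3720 RPM at D5. Of these 2 were called higher and 6 lower, against 17.3% and 18% of all genes. The calls for Mael (higher), Dppa3 and Nanos3 (both lower) were lost without D5 replicate 2, and Kit was then called lower. Pou5f1, Dnd1 and Dppa4, called lower, are also counted in the primordial germ cell and pluripotency list.

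Some transcription factors of the later oocyte were higher at D7. Of 12 tested factors of follicle formation 4 were higher and 1 lower at D7 (5 and 1 without D5 replicate 2). Over all genes 17.3% were higher and 18% lower (11.4% and 14.54% without D5 replicate 2). Nobox, an oocyte homeobox factor, had 4.51, 3.54 and 2.46 RPM at D7, against 0.296, 0.745 and 0.460 RPM at D5, a log2(RPM + 1) change of 1.57 (adjusted p = 0.0070). Lhx8, a LIM homeobox factor of early oocytes, had 8.08, 8.53 and 4.27 RPM at D7, against 1.82, 1.18 and 2.81 RPM at D5 (1.43, adjusted p = 0.0055). Stat3, a cytokine-signalling factor, rose by 0.87, and with Taf4b these were the robust calls of the list.

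Figla, a basic helix-loop-helix factor for primordial follicles, averaged 28.2 ± 3.11 RPM at D7 and 17.9 ± 4.96 RPM at D5 (SD, n = 3 each), with no overlap between libraries. Its limma adjusted p was 0.14, or 0.088 without D5 replicate 2. Foxo3, which holds primordial follicles dormant, had 63.2, 60.6 and 64.1 RPM at D7, against 70.8, 13.4 and 49.3 RPM at D5. Its log2 change was 0.77 (adjusted p = 0.079) and 0.08 without D5 replicate 2. Sohlh2, a partner of SOHLH1 in early oocytes, was lower (-0.50, adjusted p = 0.010), a call lost in the 6-library fit (adjusted p = 0.058). In the oocyte growth and maternal list 0 of 21 tested genes were higher and 2 lower (Gja4, the gap junction protein of the oocyte, and Dppa3), and neither was called without D5 replicate 2.

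Germline genes whose promoters are known to be silenced by DNA methylation in somatic cells gave 10 higher and 1 lower of 25 tested, with a median of 0.51, and 8 and 0 without D5 replicate 2. This list shares members with the lists above, among them Sycp1, Sycp3, Hormad1, Tex11, Fkbp6, Dazl, Ddx4 and Mael. Mov10l1 and Mael, both called higher, are counted again in the transposon defence list below. Taf7l, a TFIID subunit of germ cells, averaged 748 RPM at D7 and 382 RPM at D5 (log2 change 0.97), and Tex101, a germ cell surface glycoprotein gene, 340 RPM at D7 and 172 RPM at D5 (0.97). Of 20 tested transposon defence genes 6 were higher and 1 lower, against 17.3% and 18% of all genes. Without D5 replicate 2 the counts were 5 and 1, against 11.4% and 14.54%. Tdrd9, a helicase of the piRNA pathway, had 31.2, 19.2 and 19.95 RPM at D7, against 5.76, 4.34 and 8.12 RPM at D5, and rose by 1.79 (adjusted p = 0.0011). Morc1, a repressor of transposons, rose by 1.61 to 10.6 RPM at D7 against 2.79 RPM at D5. Pld6, a mitochondrial protein needed for piRNA processing, fell by 0.79. In the DNA methylation machinery 0 of 10 tested genes were higher and 1 (Trim28) was lower; without D5 replicate 2 the 2 called lower were Dnmt1 (-0.59) and Dnmt3a (-0.64), the maintenance and de novo methyltransferases.

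DNA replication genes were lower at D7 in 13 of 40 tested and higher in 1, with a median of -0.26; without D5 replicate 2 the counts were 12 and 0, and in the 6-library fit 6 and 1. Rpa2, which coats single-stranded DNA, had 186, 196 and 160 RPM at D7, against 286, 414 and 337 RPM at D5, and fell by 0.92 (adjusted p = 1.8e-05). Cdt1, the licensing factor, fell by 0.84, the replicative helicase genes Mcm2, Mcm3 and Mcm7 by 0.73, 0.56 and 0.74, and Tyms, of thymidylate synthesis, by 0.79, all robust.

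Of 30 tested mitosis genes 6 were higher (20%, against 17.3% of all genes) and 3 lower (10%, against 18%), with a median of 0.08 (4 and 1 without D5 replicate 2). Mki67, the proliferation antigen, had 635, 570 and 674 RPM at D7, against 513, 219 and 409 RPM at D5. It was called with all libraries (0.80, adjusted p = 0.035) but not without D5 replicate 2 (0.45, adjusted p = 0.25), and Cenpf, a large kinetochore protein, likewise (0.90 and 0.49). Nuf2, a kinetochore subunit, was robustly higher (0.65) and Ccnb2, a mitotic cyclin, robustly lower (-0.79). Among 25 genes of G1 control 3 were higher (12%) and 5 lower (20%), again near the shares of all genes (1 and 4 without D5 replicate 2). The CDK inhibitor Cdkn2c rose by 1.10 (10.4 RPM at D7 and 4.27 RPM at D5), whereas its relative Cdkn2d fell by 0.79 and E2f2, a factor of the G1 to S step, by 1.13.

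Cholesterol synthesis genes were lower at D7 in 15 of 22 tested and higher in 0, with a median of -0.68. Leaving out D5 replicate 2, 17 were lower and the median was -0.73, and 9 were lower in the 6-library fit. Fdps, which makes farnesyl diphosphate, had 210, 209 and 155 RPM at D7, against 347, 602 and 361 RPM at D5, a log2 change of -1.15 (adjusted p = 2.9e-05). Fdft1, squalene synthase, averaged 88.0 RPM at D7 and 191 RPM at D5 (-1.10). D7 and D5 libraries did not overlap for 16 of the 22, against 3138 of all genes (22.8%) with every D7 library below every D5 library.

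Glycolysis genes were lower in 12 of 19 tested and higher in 1, with a median of -0.63 (9 and 1 without D5 replicate 2, 6 and 1 in the 6-library fit). Gapdh had 144, 169 and 134 RPM at D7, against 241, 519 and 322 RPM at D5, and fell by 1.21, or 0.91 without D5 replicate 2, its highest library. The aldolase genes Aldoa and Aldoc fell by 0.86 and 1.56, Gpi1 by 0.76 and Ldha, lactate dehydrogenase A, by 1.21. Pfkm, the muscle phosphofructokinase, rose by 0.92, to 99.5 RPM at D7 against 52.3 RPM at D5. Among HIF targets 5 of 28 were lower (17.9%, near the 18% of all genes) and 0 higher, and of these Ldha and the mitophagy receptor gene Bnip3l (-0.57) were robust.

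Calls in the ribosome, respiratory chain and PI3K lists depended in part on D5 replicate 2. Of 79 cytosolic ribosome genes 45 were lower and 0 higher with all libraries (median -0.57), against 10 and 0 without D5 replicate 2 (median -0.18) and 1 and 0 in the 6-library fit, where Rps2 was the gene called. Of 73 respiratory chain genes 28 were lower and 3 higher (median -0.40), against 13 and 6 without it (median -0.03) and 0 and 0 in the 6-library fit. The PI3K and FOXO pathway list gave 7 higher and 2 lower of 23 (median 0.38), against 3 and 3 without D5 replicate 2 (median 0.11) and 0 and 0 in the 6-library fit. Pdpk1, a kinase that activates AKT, had 290, 289 and 357 RPM at D7, against 243, 67.8 and 198 RPM at D5. Its log2 change was 1.06 with that library and 0.50 without it, and it was called both ways (adjusted p = 0.0034 and 0.011). Rptor and Pik3ca were likewise called higher, and Rheb and Akt1 lower, with and without that library.

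Across 13107 genes with a transcript length, Spearman's rho between length and the log2 change was 0.26 with all libraries and 0.02 without D5 replicate 2. In the group of genes with the shortest transcripts (54 to 1945 bases) the median change was -0.29, or -0.09 without that library. Among those with the longest it was 0.22, or -0.06 without it. D7 replicate 2 differed from the other D7 libraries with a rho of -0.22, in the same direction as D5 replicate 2 but smaller. A rho of similar size, 0.23, was found for the difference of D5 replicate 1 from D5 replicate 3.

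**Figure D4:**
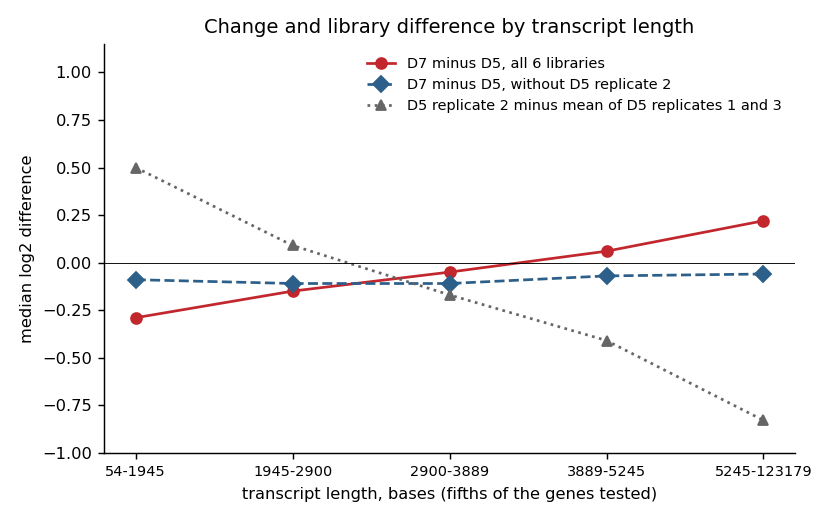
Median log2 difference of the tested genes in 5 equal groups by transcript length in bases; circles show D7 minus D5 with all 6 libraries, diamonds the same without D5 replicate 2, and triangles D5 replicate 2 minus the mean of the other D5 libraries. The circles climb with length (-0.29 to 0.22), the diamonds stay between -0.11 and -0.06, and the triangles drop with length (0.50 to -0.83).

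Among imprinted genes 3 were higher and 8 lower of 27 tested, against 17.3% and 18% of all genes. Without D5 replicate 2 they were 3 and 9, against 11.4% and 14.54%. Phlda2, which restrains placental growth, had the largest fall of the named genes, with 1.55, 4.75 and 2.20 RPM at D7, against 16.4, 35.3 and 14.1 RPM at D5 (log2 change -2.56, adjusted p = 1.3e-05). Slc22a18, its neighbour on chromosome 7, fell by 1.53. Igf2, a growth factor, and H19, a noncoding RNA of the same cluster, fell by 0.95 and 1.14. Kcnq1ot1, the long noncoding RNA that silences the Phlda2 domain, had 455, 434 and 476 RPM at D7, against 143, 49.9 and 118 RPM at D5 (2.25, adjusted p = 9.7e-06). It lies antisense within Kcnq1, and the strand setting of the counting is not given in the sources used here, so its reads and those of Kcnq1 may not be told apart. All 5 calls were robust.

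The 10 largest rises named by size included several genes outside the lists. Shank1, a postsynaptic scaffold, had 48.2, 45.0 and 55.0 RPM at D7, against 10.9, 0.570 and 6.74 RPM at D5 (3.26, or 2.39 without D5 replicate 2). Unc13a, which primes synaptic vesicles, rose by 2.72 and 2.17.

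Akap3, an anchoring protein of the sperm tail, had 27.6, 21.7 and 24.0 RPM at D7, against 2.61, 1.49 and 3.37 RPM at D5 (2.89, adjusted p = 7.1e-09). Tsga10, also of the sperm tail, rose by 2.51, to 88.5 RPM at D7 against 16.3 RPM at D5. The remaining large rises were Fcgbp (3.05), a mucin-like protein, Klhdc8b (2.64), a kelch-repeat protein, Amy1 (2.52), an amylase, and Smarca5-ps (3.06), a pseudogene that may share reads with Smarca5 and is uncertain. Each of these 8 genes had its highest course mean at D7, as did Ccnb3, also among the 10 largest rises.

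Falls beyond the lists included Ckb, the brain creatine kinase, with 29.4, 46.8 and 20.2 RPM at D7, against 77.1, 165 and 71.7 RPM at D5 (-1.65, adjusted p = 0.0016). Gamt, an enzyme of creatine synthesis, fell by 1.61, to 6.65 RPM at D7 against 23.3 RPM at D5. Baiap3, of the MUNC13 family, had 13.8, 8.38 and 16.9 RPM at D7, against 40.4, 41.1 and 42.0 RPM at D5, and fell by 1.64 with and without D5 replicate 2. Plscr3, a phospholipid scramblase, and Cnn2, a calponin, fell by 1.61 and 1.57. Among 18 p53 targets 3 were higher (16.7%, near the 17.3% of all genes) and 1 lower. The apoptosis gene Pmaip1 (1.76), the polo-like kinase gene Plk2 (1.54) and the nuclease gene Aen (0.67) rose, and Bax, of the apoptotic pore, was lower (-0.89), with an adjusted p of 0.075 in the 6-library fit. Of 21 immediate early genes 0 were higher and 2 lower, of which Ctgf, a matricellular growth factor, was robust (-1.59).

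Markers of other gonadal cells were summed over each list. In bulk RNA fewer cells of a type and less RNA per cell cannot be told apart. The 29 granulosa and pregranulosa markers summed to 75.3 to 81.8 RPM at D7 and 102 to 136 RPM at D5, against 467 to 757 RPM at D9. Of 17 tested 1 was higher and 5 lower at D7, against 17.3% and 18% of all genes. The calls for Amh (higher), Gng13 and Aard (both lower) were lost without D5 replicate 2, and those for Irx5, Rspo1 and Irx3 (all lower) were kept. Fshr was at 0 in all 6 libraries and Foxl2 at 0.518 to 1.06 RPM at D7 and 1.23 to 2.06 RPM at D5. The 21 stroma and theca markers summed to 86.4 to 115 RPM at D7 and 49.6 to 122 RPM at D5. Of 16 tested 2 were higher, against 17.3% of all genes, and 0 without D5 replicate 2, against 11.4%.

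Endothelial markers (12) summed to 37.5 to 63.5 RPM at D7 and 102 to 129 RPM at D5. Of 5 tested 3 were lower, against 18% of all genes. The same 3 were lower without D5 replicate 2, against 14.54%. Eng, a co-receptor of TGF-beta ligands, had 7.20, 7.83 and 6.67 RPM at D7, against 20.8, 18.9 and 17.6 RPM at D5 (-1.29, adjusted p = 0.0056, a robust call). Cldn5, of endothelial tight junctions, was lower by 0.75 on the log2 scale, a call lost in the 6-library fit (adjusted p = 0.13). Pecam1, which germ cells also express, made up most of the endothelial sum in each D7 and D5 library. It had 30.5, 51.6 and 23.6 RPM at D7, against 98.0, 87.5 and 75.6 RPM at D5 (-1.35, adjusted p = 0.00082). The defining endothelial gene Cdh5 was at 0.202 to 1.24 RPM at D7 and at most 0.0985 RPM at D5. Blood and immune markers (17 in the table) summed to 5.57 to 8.99 RPM at D7 and 12.3 to 13.2 RPM at D5, with Hbb-bs at 0 throughout. Mesothelial markers (8) summed to 14.6 to 18.54 RPM at D7 and 23.4 to 25.9 RPM at D5, where Krt18, a keratin, fell by 1.92. Their part in the lower BMP, retinoic acid and WNT lists and in the lower Igf2 and H19, genes that gonadal somatic cells can also express, was not tested.

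The following course means are given without a test. Stra8 averaged 775, 457, 360 and 262 RPM at D5, D7, D9 and D11 and was at 0.231 RPM by D13. Rec8 followed the same order, with 546, 187, 122 and 71.2 RPM on those days. Sycp1, with 205, 659, 344 and 268 RPM, and Spo11, with 26.8, 80.2, 36.7 and 24.5 RPM, had their highest means at D7.

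The late oocyte factor Nobox averaged 70.6 RPM at D9 and 1082 RPM at D13, and Dppa3, with 197, 105, 307 and 813 RPM at D5, D7, D9 and D11, had its lowest mean of these days at D7. Pou5f1, at 133 RPM, also had its lowest course mean at D7, against 645 RPM at D13. In germ cells of E14.5 ovaries, set beside these values without a test, Stra8 averaged 582 RPM, Sycp1 645 RPM, Spo11 68.9 RPM, Ccnb3 91.2 RPM, Pou5f1 143 RPM and Gata2 142 RPM. Over the genes named by rule, the ovarian mean on the log2(RPM + 1) scale was nearer to the D7 mean for 29 and nearer to the D5 mean for 23 of the 52 called higher at D7. Of the 67 called lower it was nearer to the D7 mean for 43 and to the D5 mean for 24. These genes were named by size of change, list or panel, and no such count was made over all tested genes. The counts therefore do not show which day the ovary is nearer to. Msh5 (138 RPM in the ovary) and Akap3 (4.49 RPM) were among those higher at D7 with an ovarian mean nearer to D5, and Id3 (152 RPM), Phlda2 (25.7 RPM) and Gata2 among those lower at D7 with an ovarian mean nearer to D5.

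**Figure D5:**
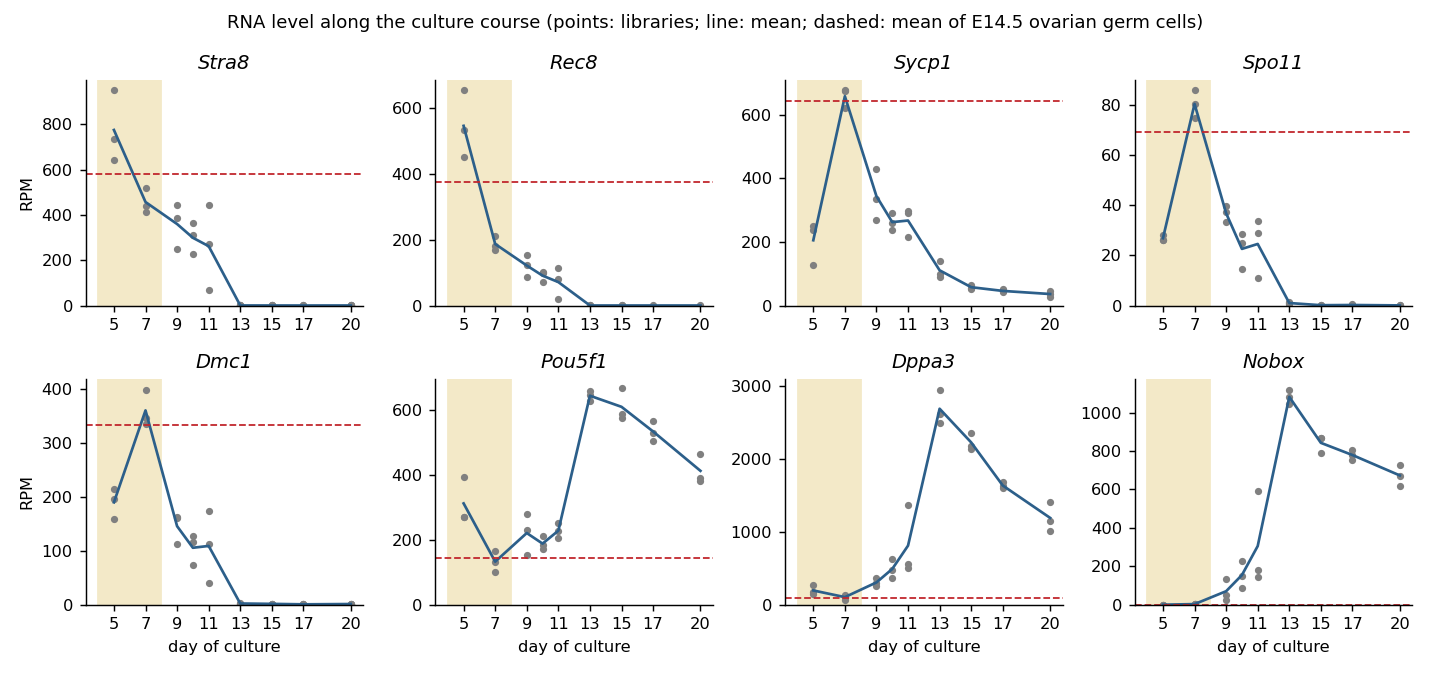
RPM of 8 genes by day of culture, with points for libraries, a line through daily means and a shaded band over D5 and D7; the dashed line is the mean of E14.5 ovarian germ cells. Stra8 and Rec8 are highest at D5, Sycp1, Spo11 and Dmc1 at D7, and Dppa3 and Nobox climb after D7.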

How the data were processed

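The values were deposited RPM. Per the labels, the authors prepared strand-specific libraries from poly(A) RNA and amplified them over 12 cycles of PCR. TopHat2, Bowtie2 2.0.13, featureCounts 1.5.1, R 3.4.4 and mm10 are named in the submitters' processing notes; annotation, strand setting and filters are not given in the sources used here. RPM are not divided by transcript length, so levels were compared only within a gene or a fixed list, and longer transcripts weigh more in a list's sum. Whole reads were recovered for 100% of values to within 0.01 of a read. Genes with a mean of at least 1 RPM at D7 or D5 were tested with limma 3.58.1 (R 4.3.3; trended variance, 1 mean per day, 27 culture libraries, 18 residual degrees of freedom) on log2(RPM + 1), two-sided, with Benjamini-Hochberg adjustment over all 13778 genes and a threshold of 0.05. This understates the change of low genes. Over single genes an exact permutation test of 3 against 3 cannot go below p = 0.1, so none was run. edgeR 4.0.16 and DESeq2 1.42.0 on the recovered reads, other pseudocounts, filters, scalings, sample sets and left-out libraries were the alternatives. The comparison and the gene lists were chosen with earlier results of these data known. The genes named were the 10 largest rises and 10 largest falls among called genes without overlap and with a mean of at least 20 RPM (predicted genes passed over), up to 4 called members per list, and a panel of 16 genes. Genes named beyond that rule, among them other list members and all robust calls, were picked after their values were seen. Transcript lengths came from GENCODE M21. The scripts were tested on simulated data in which each gene had the same dispersion on all days. No simulated library was shifted as D5 replicate 2 was, so that test says nothing on its effect. Results for some genes are not reported here.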

Additional observations from a re-analysis of the deposited data

How the results depend on the processing

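The number of genes called fell to 1881 (894 higher, 987 lower at D7) when only the 6 libraries of D7 and D5 were fitted, and to 2124 (1046 and 1078) when the replicate block was added to that fit. In the 27-library fit the replicate block gave 5016 calls. Same-numbered D7 and D5 libraries deviated together at r of 0.0083, 0.22 and 0.24, so the numbers were not taken to pair them, although each D7 library correlated best with its own number. A pseudocount of 5 left 499 called genes whose log2 change reached 1. Leaving out each library in turn gave 3010 to 5322 calls, 1561 to 2777 higher and 1449 to 2545 lower, and 987 to 1942 whose log2 change reached 1. The fewest calls (3010, 1561 higher and 1449 lower) came without D7 replicate 3, and without D5 replicate 2 the higher genes numbered 1574. edgeR called 2146 higher and 1890 lower, DESeq2 2223 and 2515, and median-of-ratios scaling 2420 and 2429. Among the genes refitted under every alternative Dazl changed sign, with -0.21 to 0.03 over the left-out libraries and 0.03 without D5 replicate 3 (adjusted p = 0.93, against 0.49 to 0.84 under the other alternatives). Without D5 replicate 2 the uncalled Smad1 went to -0.05, against 0.31 with it, and the median of the longest transcripts also changed sign. The causes of these shifts were not tested. The 6-library fits had fewer residual degrees of freedom (4 and 2) and took their spread from D7 and D5 alone. The part of each in the fewer calls was not tested. Depth limits statements on genes under about 0.194 RPM, the largest floor.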
